A study of Danio rerio with 4 samples.

Results

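The genes described here are the JAK kinases and the SOCS genes of the zebrafish. The set was chosen with earlier results of these data known. Its members were taken by symbol, as every gene named jak, tyk2, socs or cish in the count table. Copy suffixes such as "(2 of 2)" were set aside. The rule found 21 of the 32434 genes in the table, 5 of them JAK kinases and 16 of them SOCS genes. Polyadenylated RNA was sequenced from progenitor cells of the kidney marrow of adult fish, the site of blood formation in this species, to compare 2 libraries of tet2 mutant fish with 2 libraries of wild-type fish. The mutants were homozygous for an allele made with zinc finger nucleases, written m/m, and the wild-type fish carried no edited allele. The Tet2 enzyme oxidizes methylated cytosines of DNA. The titles of all 4 libraries, the columns of the count table and the study's account of its expression comparison put the fish at 4 months, whereas the descriptions of the same libraries state 15 months. Cells were gated by light scatter and not by a surface marker, so each library is a mixture of cell types. The study speaks of biological replicates and, for its methylation data, of pools, but the labels do not say which fish went into each RNA library. The p-values below thus speak only of the spread between these libraries. With the replicate block each gene had 1 residual degree of freedom, so its spread was largely estimated from the other genes.

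Cytokine receptors of the type I and type II families have no kinase activity of their own and signal through JAK kinases bound to their inner ends. An active JAK phosphorylates the receptor and then STAT transcription factors, which enter the nucleus and switch on target genes. SOCS and CISH proteins are feedback inhibitors: many of their genes are STAT targets, and the proteins bind phosphorylated receptors or the JAK itself through an SH2 domain and recruit a ubiquitin ligase through a SOCS box. In mammals JAK2 serves the erythropoietin and thrombopoietin receptors, JAK3 works with the common gamma chain of lymphocyte receptors, TYK2 and JAK1 serve interferon receptors, and SOCS1 restrains interferon signalling. Many of these genes have a pair of copies in zebrafish from the genome duplication of bony fish.

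Total read counts ranged from 8838603 to 10710913 per library, and levels are given as CPM, the read count over a library size scaled by edgeR's TMM method. A count of 0 allows up to 3 reads, which is 0.271 to 0.396 CPM in a library, for counting error only. The mutated gene itself, tet2, had 23.7 and 25.5 CPM in mutants, against 33.8 and 24.4 CPM in wild type. The allele carries a small deletion, so the tet2 read count does not check the labels. Globin transcripts took 3.19 to 4.54% of the reads of mutants and 7.77 to 10.8% of those of wild type. The progenitor markers were present in every library. Their summed level was 410 to 434 CPM in mutants and 369 to 398 CPM in wild type over 10 genes. Most of each sum was tal1 and lmo2, whose groups overlapped. The gene fli1a was apart, at 63.9 and 109 CPM in mutants against 46.4 and 33.4 CPM in wild type. The genes runx1 and gfi1aa had few reads, 7 to 16 and 6 to 11 per library. For the listed myb the current symbol is mybl2a. The other cell types of the marrow also left their transcripts in the libraries, as described with the results they move with. In bulk RNA, fewer cells of a type and less RNA per cell cannot be told apart.

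Of the 21 genes, 18 had more than 5 reads in all and were tested. Both socs1 and socs8 passed the test, 1 in each direction. The gene socs1 was 2.64-fold higher in tet2 mutants, and socs8 was lower, at 0.399 of its wild-type level. Genes were called in edgeR's quasi-likelihood test, fitted over all 17242 tested genes with the replicate number as a block, where the adjusted p was under 0.05 and the log2 fold change was beyond 1 in either direction. That test called 3.70% of all tested genes, 1.80% as higher and 1.90% as lower in mutants. Among the JAK and SOCS genes it called 2 of 18, or 11.1%, a share that rests on 2 genes. At an unadjusted p under 0.05 there were 5 of 18, against 17.1% of all tested genes. These were socs1 and SOCS1 (2 of 2), which were higher in mutants, and jak2a, socs8 and socs5b, which were lower. Both mutant libraries lay on 1 side of both wild-type libraries for 10 of the 18 genes, 3 above and 7 below, which is 55.6% against 44.8% of all tested genes. The estimate was below 0 for 13 of the 18, or 72.2%, against 50.7% of all tested genes. The median log2 fold change of the 18 was -0.33, with -0.26 for the JAK genes and -0.36 for the SOCS genes. Over all tested genes it was -0.01.

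**Figure D1:**
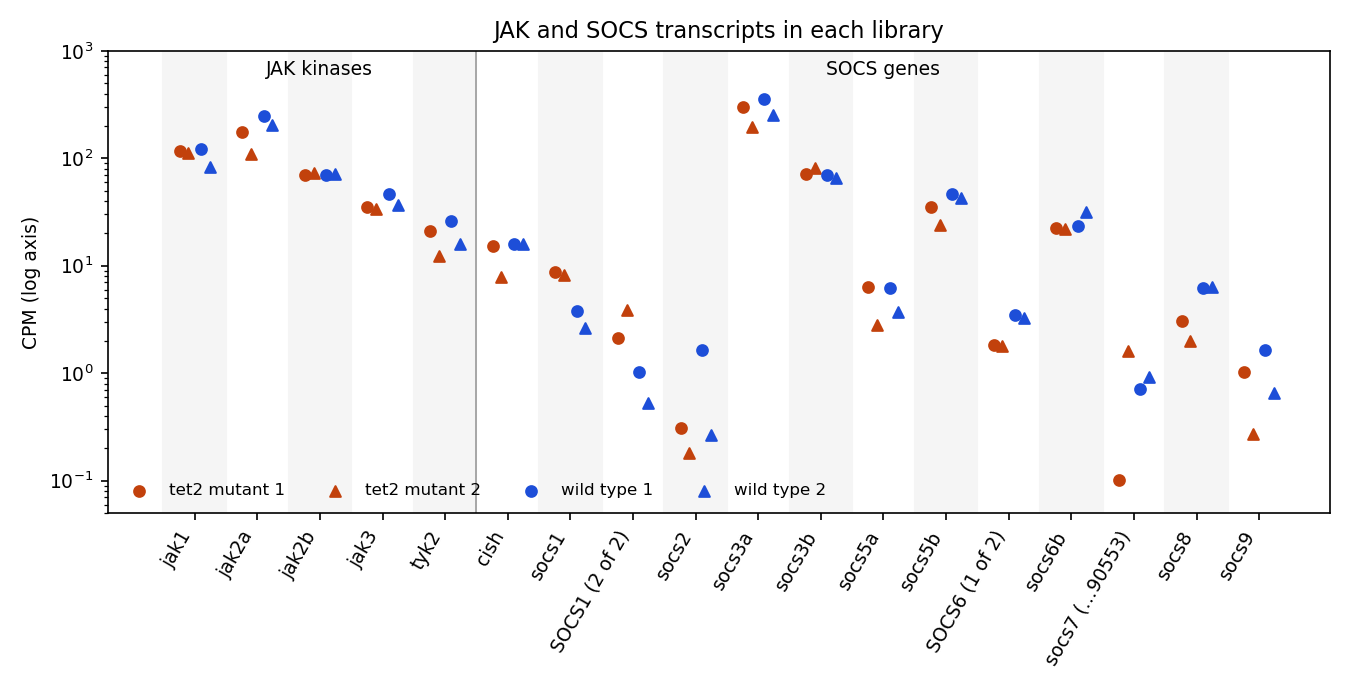
Level of each of the 18 tested JAK and SOCS genes in each library, in CPM on a log axis, with tet2 mutants in orange and wild type in blue, replicate 1 as circles and replicate 2 as triangles. CPM is not divided by gene length, so heights are to be compared within a gene; both mutant points lie above both wild-type points for socs1, SOCS1 (2 of 2) and socs3b, and below them for socs8 and 6 other genes.

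Of the 5 JAK kinase genes 0 were called in edgeR or in DESeq2, and jak2a was the 1 with an unadjusted p under 0.05. The gene jak2a, a zebrafish copy of the kinase that red cell and thrombocyte receptors use in mammals, had 177 and 108 CPM in mutants, against 246 and 202 CPM in wild type. The groups did not overlap, although the mutant replicates differed from each other by 1.63-fold. The log2 fold change was -0.68 ± 0.24 (SE), with an adjusted p of 0.0892 in edgeR's quasi-likelihood test. Leaving out a library moved it between -1.05 and -0.34. Its lowest value, without mutant replicate 1, was the only one of the 14 fits run that passed both thresholds. The other copy, jak2b, had 69.1 and 73.1 CPM in mutants and 70.3 and 71.9 CPM in wild type. These 4 values are the closest together of any of the JAK genes, and the log2 fold change of jak2b was 0.00015 ± 0.20 (SE).

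The gene jak1 had 118 and 112 CPM in mutants and 121 and 83.0 CPM in wild type. The wild-type replicates thus lay on both sides of the mutants, and the log2 fold change was 0.19 ± 0.22. The gene jak3, the lymphocyte kinase, had 35.3 and 33.4 CPM in mutants and 46.0 and 36.4 CPM in wild type. Both mutant values were below both wild-type values, but the lower wild-type value was close to the higher mutant value. The log2 fold change of jak3 was -0.26 ± 0.20, with an adjusted p of 0.598 in edgeR. The gene tyk2 had 20.97 and 12.3 CPM in mutants and 26.3 and 16.1 CPM in wild type, and replicate 1 was above replicate 2 by a similar factor in each genotype, 1.71-fold in mutants and 1.63-fold in wild type. Its log2 fold change was -0.36 ± 0.23. Summed over the 5 kinases, the level was 379 ± 57.2 CPM in mutants and 459 ± 70.3 CPM in wild type (SD, n = 2 each), and the sums of the groups overlapped. With 2 libraries against 2, a two-sided exact permutation test cannot give a p below 0.3333, so none was run on such sums.

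Among the SOCS genes, both copies of SOCS1 had more reads in either mutant library than in either wild-type library, and the first copy passed the test. SOCS1 binds JAK directly and blocks its kinase activity, in addition to marking it for degradation. The gene socs1 (ENSDARG00000038095, socs1a in RefSeq) had 85 and 91 reads in mutants, against 37 and 20 reads in wild type. In CPM these were 8.69 and 8.21 in mutants and 3.77 and 2.64 in wild type. The mutant replicates were nearly equal, and the lowest of them was above the highest wild-type value. The mean was 8.45 ± 0.339 CPM in mutants and 3.20 ± 0.80 CPM in wild type (SD, n = 2 each). The log2 fold change was 1.40 ± 0.33 (SE), with an adjusted p of 0.00809 in edgeR. Reads summed by genotype and scaled for depth gave a ratio of 2.58, with an exact 95% interval of 1.90 to 3.54 that covers counting error only.

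The call for socs1 depended on the fit, and it passed in 5 of 14. Without the replicate block its log2 fold change was 1.38 with an adjusted p of 0.0795, and with DESeq2 and the block it was 1.41 with an adjusted p of 0.324. Leaving out any single library kept it between 1.15 and 1.65 with adjusted p-values of 0.0544 to 0.248 in edgeR, so no such fit called it; these fits carry no block.

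The second copy, SOCS1 (2 of 2), socs1b in RefSeq, had 21 and 43 reads in mutants, against 10 and 4 reads in wild type, or 2.15 and 3.88 CPM against 1.02 and 0.528 CPM. The groups did not overlap, but both genotypes had replicates that differed by 1.81-fold in mutants and 1.93-fold in wild type. The log2 fold change was 1.87 ± 0.60, with an adjusted p of 0.0623 in edgeR. Over the 14 fits it ranged from 1.43 to 2.46, and it passed both thresholds in 2 of them, at an adjusted p of 0.0261 with no filter on low counts and of 0.0243 when mutant replicate 1 was left out. Reads of this copy are few, and its summed ratio of 3.81 has an interval of 2.12 to 7.36. The sources used here do not say how reads that fit both copies were counted.

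**Figure D2:**
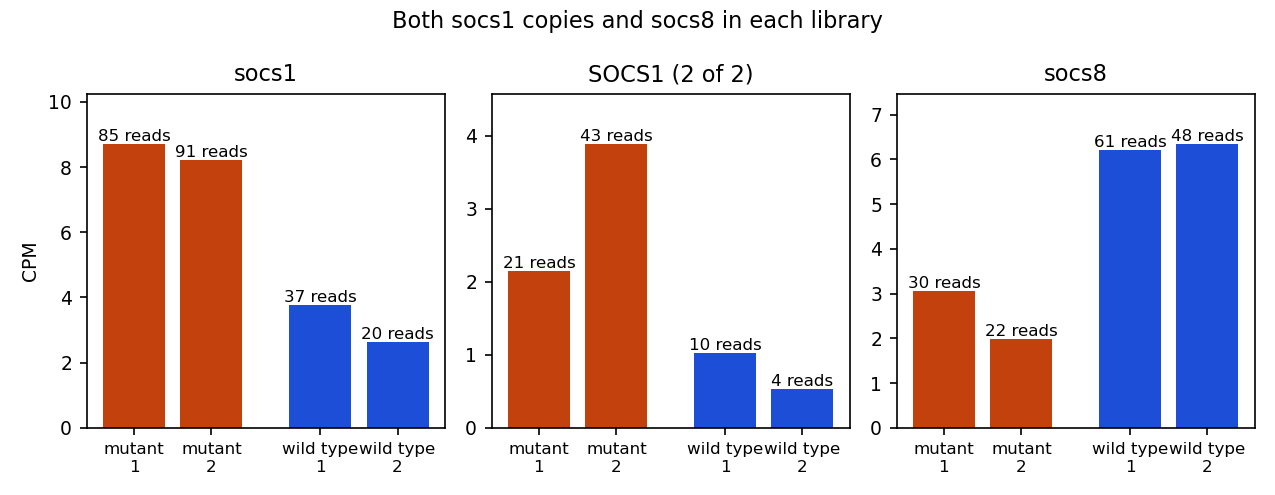
Level of socs1, SOCS1 (2 of 2) and socs8 in each library, in CPM from 0, with 1 bar per library (tet2 mutant in orange, wild type in blue) and its read count above it. Both mutant bars are above both wild-type bars for the SOCS1 copies, at 85 and 91 reads against 37 and 20 for socs1, and below them for socs8, at 30 and 22 reads against 61 and 48.

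CISH, in mammals a STAT5 target that damps erythropoietin, interleukin 2 and growth hormone signals, has a pair of genes here, cish (cisha in RefSeq) and socs8 (cishb in RefSeq). The gene socs8 had 3.07 and 1.99 CPM in mutants, against 6.21 and 6.33 CPM in wild type. The wild-type replicates differed by 1.02-fold and both were above both mutants. The mean was 2.53 ± 0.766 CPM in mutants and 6.27 ± 0.0835 CPM in wild type (SD, n = 2 each), and socs8 fell by 1.33 ± 0.37 (SE) on the log2 scale, with an adjusted p of 0.0273 in edgeR. It was called in 6 of the 14 fits. Without the replicate block the adjusted p was 0.139, and with DESeq2 and the block it was 0.525. Without mutant replicate 2 the log2 fold change was -1.03 with an adjusted p of 0.452, and without wild-type replicates 1 and 2 in turn the adjusted p was 0.232 and 0.263. Without mutant replicate 1 it was -1.65, with an adjusted p of 0.0413.

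The copy cish was not called. It had 15.3 and 7.85 CPM in mutants and 16.1 and 15.8 CPM in wild type, so mutant replicate 1 was close to wild type and mutant replicate 2 was apart. The log2 fold change of cish was -0.52 ± 0.26, with an adjusted p of 0.303 in edgeR.

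The remaining tested SOCS genes did not pass. The gene socs3a, a copy of the inhibitor that acts on gp130 and granulocyte colony-stimulating factor receptors in mammals, had the most reads of the family, with 301 and 195 CPM in mutants and 357 and 251 CPM in wild type. Its groups overlapped, and replicate 1 was above replicate 2 in both genotypes. The other copy, socs3b, had 72.1 and 82.0 CPM in mutants and 70.5 and 66.0 CPM in wild type. The estimates were -0.30 ± 0.25 for socs3a and 0.17 ± 0.21 for socs3b on the log2 scale. The gene socs5b, whose mammalian counterpart acts on epidermal growth factor and interleukin 4 receptors, had 35.0 and 23.9 CPM in mutants, against 46.4 and 42.3 CPM in wild type. Its groups did not overlap, and its log2 fold change of -0.61 ± 0.21 had an adjusted p of 0.0799 in edgeR. Its copy socs5a had 6.34 and 2.80 CPM in mutants and 6.21 and 3.69 CPM in wild type, where the replicates differed more than the genotypes.

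The SOCS6 copies, whose mammalian counterpart binds the KIT receptor, gave values below 0. SOCS6 (1 of 2) had 1.84 and 1.81 CPM in mutants, against 3.46 and 3.298 CPM in wild type, and its log2 fold change was -0.89 with an SE of 0.47 and an adjusted p of 0.337 in edgeR. The replicates of SOCS6 (1 of 2) differed by 1.02-fold in mutants and 1.05-fold in wild type, with 18 to 34 reads per library. The copy socs6b had 22.6 and 21.8 CPM in mutants and 23.3 and 31.4 CPM in wild type. The gene socs2, a growth hormone signal inhibitor in mammals, had 3 and 2 reads in mutants and 16 and 2 reads in wild type. Its estimate of -1.70 ± 1.15 rested on wild-type replicate 1, without which it was -0.15. The gene socs9 had 10 and 3 reads in mutants and 16 and 5 reads in wild type, with replicate 1 above replicate 2 in both.

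The table has 3 identifiers named socs7. ENSDARG00000090553 was tested and had 1 and 18 reads in mutants and 7 and 7 reads in wild type, so its mutant replicates differed by more than the genotypes. Its log2 fold change was -0.36 ± 0.95. ENSDARG00000075903 had 1 read in all, in wild-type replicate 2, and its current name is chadlb, another gene. ENSDARG00000077018 had 0 and 1 reads in mutants and 1 read in each wild-type library. The gene socs4 had 2 and 0 reads in mutants and 0 and 1 reads in wild type. All counts of these last 3 identifiers lie under the limit that a count of 0 allows, and no difference was detectable at this depth. Summed over the 16 SOCS genes the level was 411 ± 83.7 CPM in mutants and 482 ± 79.2 CPM in wild type (SD, n = 2 each), and the sums overlapped. Most of the sum was socs3a.

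**Figure D3:**
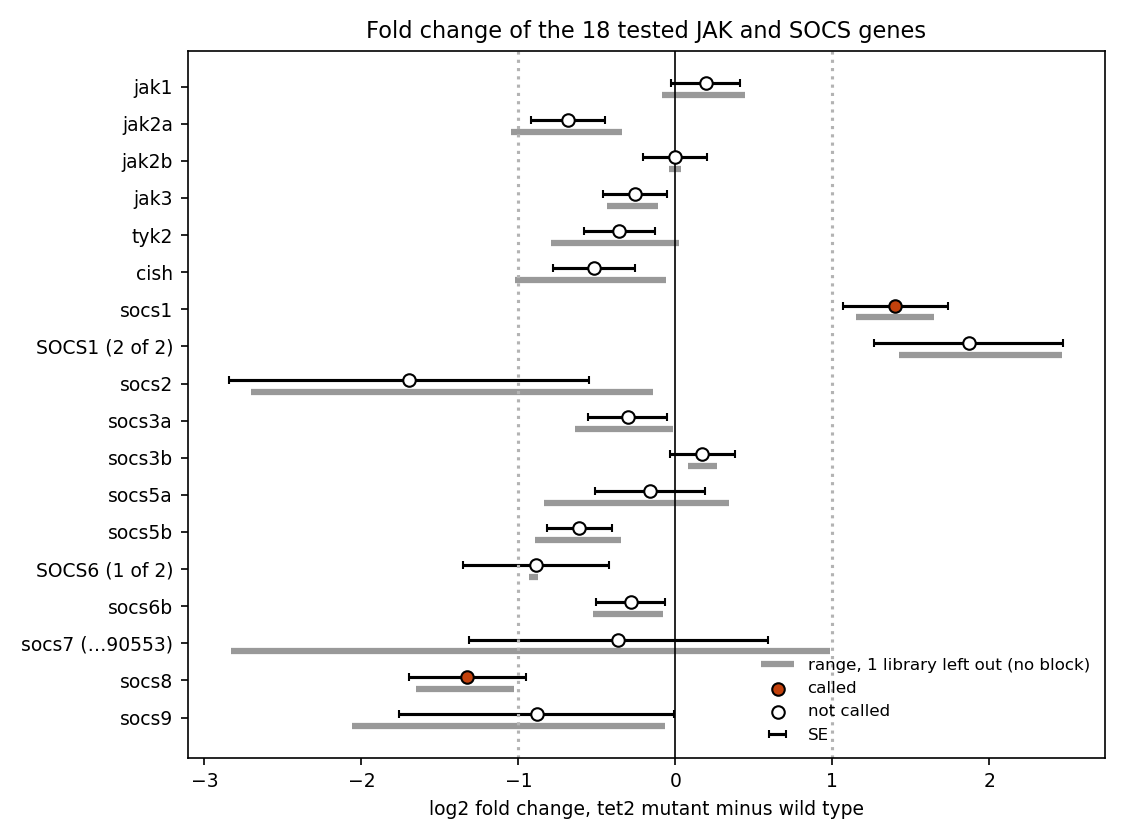
Log2 fold change, tet2 mutant minus wild type, of the 18 tested JAK and SOCS genes with its standard error (points and black bars; filled points passed both thresholds). Grey bars span the fits with 1 library left out and dotted lines mark a log2 fold change of 1 in either direction; socs1 at 1.40 and socs8 at -1.33 are the filled points, and their grey bars stay on 1 side of 0.

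Pairs of gene copies can be compared within a library, since the scaling of the library cancels in their ratio. These ratios are read counts not divided by gene length, so only their change between libraries has a meaning. The ratio of jak2a to jak2b was 2.56 and 1.48 in mutants, against 3.49 and 2.81 in wild type, a mean difference of -0.69 on the log2 scale with no overlap. The ratio of cish to socs8 was 5 and 3.95 in mutants, against 2.59 and 2.50 in wild type, which is 0.81 higher on the log2 scale with no overlap. The ratio of socs6b to SOCS6 (1 of 2) was 12.3 and 12.1 in mutants, against 6.74 and 9.52 in wild type. By contrast, the ratio of socs1 to SOCS1 (2 of 2) was 4.05 and 2.12 in mutants and 3.70 and 5 in wild type, and overlapped between genotypes. The ratios of socs3a to socs3b and of socs5a to socs5b also overlapped. Between different inhibitors, the ratio of socs1 to socs3a was 0.0288 and 0.0421 in mutants, against 0.0106 and 0.0105 in wild type, so the mixture of SOCS transcripts held more socs1 relative to socs3a in both mutant libraries. No test was run on these ratios, which are a description. With so few libraries a lack of overlap is common, and in CPM it held for 44.8% of all tested genes.

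**Figure D4:**
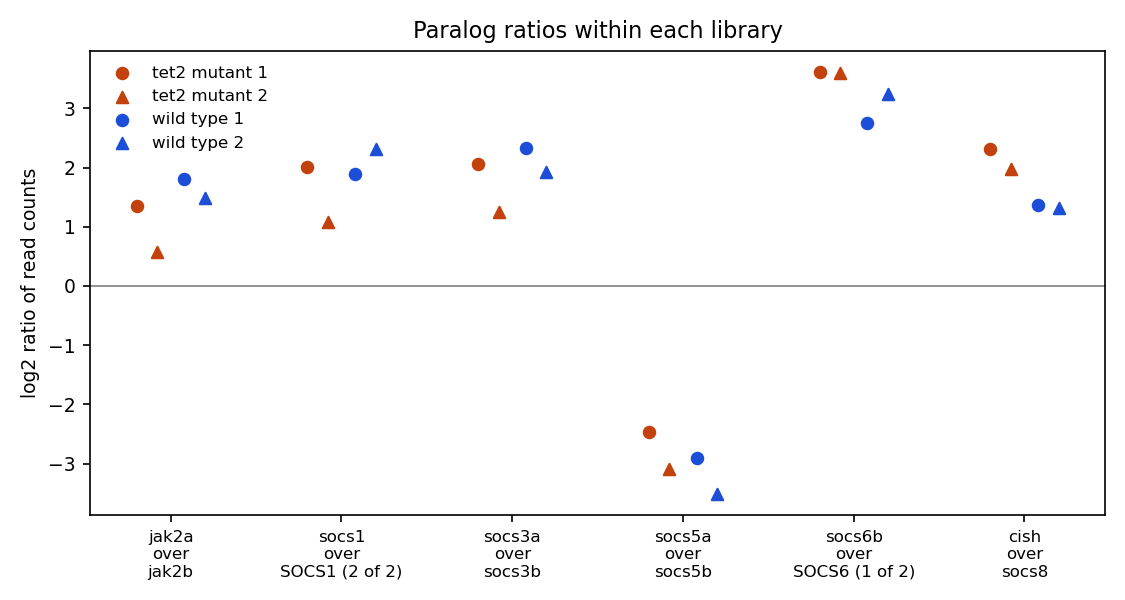
Log2 ratio of the read counts of 6 pairs of gene copies within each library (tet2 mutants in orange, left; wild type in blue, right). The groups are apart for jak2a over jak2b, socs6b over SOCS6 (1 of 2) and cish over socs8, and they overlap for the other 3 pairs. In CPM the groups are apart for 44.8% of all tested genes.

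Genes with a pattern over the 4 libraries most like that of socs1 were found by the root mean square difference of their centred log2 CPM, among 13144 genes with a mean log2 CPM of at least 0. The 5 nearest were moxd1 at 0.056, CU694374.2 (now ms4a17a.3) at 0.056, xkr9 at 0.073, mhc1uba at 0.080 and si:ch73-213j4.4 (now mhc1uca) at 0.087. The nearest, moxd1, had 229 and 206 CPM in mutants, against 100 and 66.0 CPM in wild type. CU694374.2 and xkr9 had few reads, with sums of 13 and 12 in wild type, and were not called. Of the 5, mhc1uba and mhc1uca are class I histocompatibility genes. The gene mhc1uba had 37.5 and 37.6 CPM in mutants, against 18.7 and 13.7 CPM in wild type. The gene si:ch73-213j4.4 had 101 and 108 CPM in mutants, against 53.0 and 34.8 CPM in wild type. Their likeness to socs1 was the criterion by which they were found, and with 4 libraries it is a description only.

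Beyond the JAK and SOCS genes, 88 genes of the pathway were in the table by lists of receptors, STAT factors, other inhibitors and STAT target genes, and 84 were tested. The test called 4 of them as higher and 2 as lower in mutants, beside the 3.70% of all genes given above, and their median log2 fold change was 0.03.

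The list of STAT target genes held called members in both directions. The gene irf1b, an interferon regulatory factor, had 145 and 409 CPM in mutants, against 72.8 and 71.4 CPM in wild type, and rose by 1.76 ± 0.28 on the log2 scale (adjusted p = 8.04e-05 in edgeR). Its mutant replicates differed by more than its wild-type replicates, and without mutant replicate 2 the log2 fold change was 1.01. It was called in 10 of 14 fits, and its adjusted p was 0.264 in DESeq2 with the block. The gene gfi1ab, a transcriptional repressor of blood progenitors, had 4.91 and 6.59 CPM in mutants, against 17.0 and 19.4 CPM in wild type. It fell by 1.67 ± 0.26 on the log2 scale (adjusted p = 5.96e-05 in edgeR) and was called in each of the 14 fits. The gene ccnd2a, which encodes a cyclin of the G1 phase, had 15.6 and 6.32 CPM in mutants, against 34.2 and 17.5 CPM in wild type. It fell by 1.29 ± 0.23 on the log2 scale (adjusted p = 0.000459 in edgeR). It was not called without mutant replicate 2, at a log2 fold change of -0.73, or without wild-type replicate 1, at -0.70. These fits carry no block. With all libraries and no block its adjusted p was 0.162 in edgeR, so it was not called there either. The other copy, ccnd2b, went the other way, at 13.8 and 18.3 CPM in mutants against 9.88 and 7.26 CPM in wild type. Its log2 fold change of 0.90 ± 0.27 had an adjusted p of 0.0389 in edgeR and missed the fold threshold.

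Of 32 tested receptor genes, 2 were called, both higher in mutants, beside 3.70% of all tested genes. At an unadjusted p under 0.05 in edgeR, 5 receptor genes were higher and 7 were lower. The median log2 fold change of the list was 0.05. OSMR (2 of 3), whose current name is lifrb, had 73.2 and 51.4 CPM in mutants, against 32.7 and 20.7 CPM in wild type, and rose by 1.23 ± 0.20 on the log2 scale (adjusted p = 0.000129 in edgeR). It was not called without mutant replicate 1, at 0.94, or without wild-type replicate 2, at 0.92. The entry osmr (ENSDARG00000042903) went the other way, at -0.74 ± 0.33, and its groups overlapped. The gene crfb17, now ifngr1, is annotated as an interferon gamma receptor chain, and it had 6.65 and 2.17 CPM in mutants, against 1.63 and 0.660 CPM in wild type. It rose by 1.90 ± 0.49 on the log2 scale (adjusted p = 0.0152 in edgeR). In fits that carry no block, crfb17 was not called without mutant replicate 1, at 0.88, or without wild-type replicate 2, at 1.41. With all libraries and no block its adjusted p was 0.188 in edgeR, so it was not called there either. The gene crfb13, whose current symbol is ifngr1l, had 21.2 and 5.24 CPM in mutants and 26.6 and 9.76 CPM in wild type. Its log2 fold change was -0.57 ± 0.25, with an adjusted p of 0.208 in edgeR. The neutrophil receptor gene csf3r had 117 and 25.4 CPM in mutants and 181 and 59.5 CPM in wild type. Its replicates differed more than its genotypes, and its log2 fold change of -0.92 missed the fold threshold. Of 16 other inhibitors of the pathway, edgeR and DESeq2 called 0 with all libraries, and 4 reached an unadjusted p under 0.05 in edgeR. The phosphatase genes PTPN6 (ENSDARG00000013916) and ptpn11a had log2 fold changes of 0.72 ± 0.22 and 0.66 ± 0.21, and the ubiquitin ligase gene cbl had 0.55 ± 0.21. The entry ptpn6 (ENSDARG00000089043), which holds the current symbol, was at 0.16 ± 0.21 with an adjusted p of 0.783 in edgeR. The copy ptpn11b was at -0.35 ± 0.25. PTPN6 was called without mutant replicate 1, at 1.06 with an adjusted p of 0.0038 in edgeR, and was at 0.38 without mutant replicate 2.

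**Figure D5:**
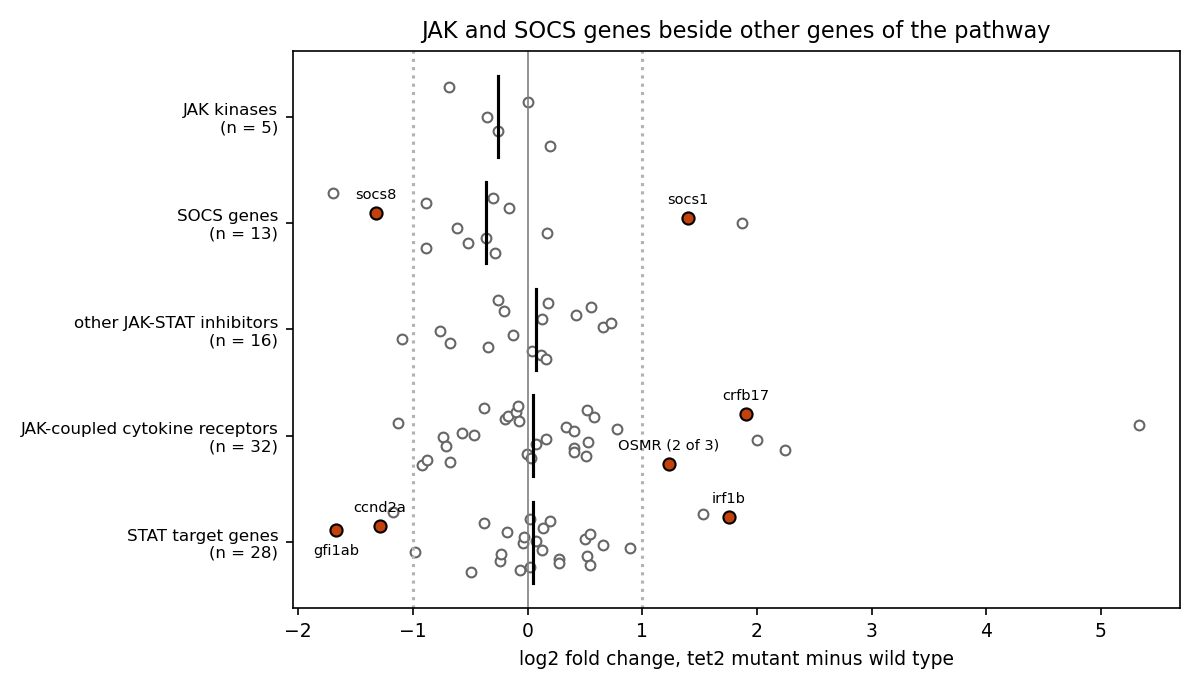
Log2 fold change, tet2 mutant minus wild type, of each tested gene (points; filled and named where both thresholds were passed) in the JAK and SOCS lists and the lists of other inhibitors, receptors and STAT target genes, with the list's median as a black bar and dotted lines at a log2 fold change of 1 in either direction. The medians lie between -0.36 and 0.08, and the receptor gene at the far right is lifra, with 7 and 3 reads in mutants against 0 in both wild-type libraries.

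Markers of other blood cells moved with genotype beside these results. Of 11 tested B cell markers, edgeR called 8 as lower in mutants and DESeq2 with the block called 4. Their summed level was 220 to 288 CPM in mutants and 412 to 441 CPM in wild type. Of 8 tested red cell markers, edgeR called 0 and DESeq2 called 1 with the block and 3 without it. In edgeR 5 had an unadjusted p below 0.05. All 8 had estimates below 0, and their summed level was 26698 to 39177 CPM in mutants and 61944 to 100773 CPM in wild type. Of 10 neutrophil markers, edgeR called mmp13a as higher and DESeq2 called 0. In edgeR 7 were higher at an unadjusted p below 0.05 and 1 was lower. The lower one was csf3r, described above, at a log2 fold change of -0.92 with an adjusted p of 0.00881 in edgeR. The summed level of the list was 3491 to 6721 CPM in mutants and 2683 to 4065 CPM in wild type, and the sums overlapped. Most of each sum was lyz, at 2032 and 3881 CPM in mutants and 2524 and 1634 CPM in wild type. Its log2 fold change was 0.47 ± 0.44. Macrophage markers were called in both directions, 3 higher and 5 lower of 21 tested. Most of these calls were copies of the gene MFAP4, which themselves went in both directions. The sums of the list were 1740 to 1965 CPM in mutants and 1948 to 1988 CPM in wild type. Most of each sum was cd74a and cd74b, neither of them called. Of the called genes, mpeg1 rose by 1.28 ± 0.21 and csf1ra fell by 1.27 ± 0.24 on the log2 scale. Among 7 T and NK cell markers edgeR and DESeq2 called 0, and 1 had an unadjusted p below 0.05 in edgeR. The listed symbol CD3EAP is now polr1g, a subunit of RNA polymerase I and no T cell marker, and without it the summed level was 15.5 to 18 CPM in mutants and 11.1 to 11.9 CPM in wild type over 6 genes. Among 7 thrombocyte markers both tools also called 0, with 2 at that unadjusted p in edgeR. The sums of this list were 332 to 357 CPM in mutants and 273 to 297 CPM in wild type. Most of each sum was nfe2, at 190 and 255 CPM in mutants and 169 and 182 CPM in wild type. The next largest, gp9 and gp1bb, overlapped between genotypes. Of the progenitor markers, edgeR called fli1a as higher, and DESeq2 with the block called 0 of 10. The part of these cell types in the levels of socs1, socs8 and the other genes above was not tested.

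The kidney that surrounds the marrow also left transcripts, which were uneven between replicates. The tubule gene cdh17 had 26.2 and 2.44 CPM in mutants and 4.38 and 3.69 CPM in wild type, so mutant replicate 1 stood apart, and lrp2a was at 0 in each library. Of 6 tested tubule markers and 7 markers of endothelium and stroma, edgeR and DESeq2 called 0, and 2 of each list had an unadjusted p below 0.05 in edgeR. The 2 tubule genes went opposite ways, cdh17 at a log2 fold change of 1.30 and slc20a1a at -0.55. The 2 genes of the other list, col1a1a and col1a2, were both lower in mutants. Without mutant replicate 1, in an edgeR fit that carries no block, the log2 fold change of socs1 was 1.34 and that of socs8 was -1.65. With all libraries and no block they were 1.38 and -1.31, and neither gene was called.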

How the data were processed

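RNA of sorted kidney marrow progenitors was sequenced by the authors as 50-bp single-end, poly(A)-selected reads. They used FastQC 0.10.1, aligned with STAR 2.3.0 to Zv9 and derived the deposited gene counts with BEDTools 2.16.1 and the Ensembl annotation. These are raw counts. The sources used here do not state how strand, overlapping genes and multiply mapping reads were handled, so gene copies are uncertain. 0 columns had no sample. DNA methylation data were not analysed here.

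Members and lists were chosen with earlier results of these data known. Genes with more than 5 reads over the 4 libraries (17242) were tested in edgeR 4.0.16 (limma 3.58.1, R 4.3.3): TMM scaling, the older form of the quasi-likelihood F-test, two-sided, genotype plus the replicate number as a block, Benjamini-Hochberg adjustment over all tested genes. Calls needed an adjusted p under 0.05 together with a log2 fold change beyond 1 in either direction. Filter, thresholds and block follow the study's methods, but the tool does not, as the study used DESeq2. As run here, DESeq2 with the block called 104 genes as higher and 119 as lower in mutants. Of the JAK and SOCS genes it called 0. The SE is the size of the log2 fold change divided by the root of the F statistic. CPM values use TMM factors of 1.06 and 1.03 for mutants and 1.07 and 0.858 for wild type. Intervals of count ratios are exact binomial (Clopper-Pearson, 95%). All 6 library pairs differed beyond counting error (chi-square per degree of freedom 19.6 to 74.8).

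Every JAK and SOCS gene was accounted for. From the other pathway lists, the called genes and up to 3 genes with the smallest p per list were named, and for socs1 the 5 nearest genes (prior count 2). As exceptions, 1 called gene and the STAT list are not reported here beyond the counts over all pathway genes. The genes lifra, osmr, crfb13, ccnd2b, ptpn6 and ptpn11b and the MFAP4 copies were singled out after their values were seen. So were the markers mmp13a, fli1a, cdh17, lrp2a, slc20a1a, col1a1a and col1a2. The same holds for tal1, lmo2, runx1, gfi1aa, myb, lyz, nfe2, gp9, gp1bb, cd74a, cd74b, mpeg1 and csf1ra. A current symbol was found for 17 of the 21 genes, and for 1 of them it names another gene. Alternatives were DESeq2 1.42.0 with and without the block, no block, the bias-adjusted and the robust quasi-likelihood fit, DESeq2-type (RLE) size factors, no filter, filterByExpr, 12 globin identifiers left out of the scaling, and each library left out. The scripts were tested on simulated data.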

Additional observations from a re-analysis of the deposited data

How the results depend on the processing

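Over 13 alternatives, 195 of 231 estimates for the JAK and SOCS genes kept their direction and their side of the thresholds. Of the rest, 17 lost a call, 3 gained one and 16 changed sign. Only socs1 and socs8 had a call to lose, and they passed in 5 and 6 of the 14 fits. Against 638 calls over all genes, there were 258 without the replicate block, 223 with DESeq2 and the block, 327 with DESeq2 without it, 197 in the bias-adjusted fit, 235 with globins left out of the scaling and 412 to 941 with 1 library left out. Under those first 5 alternatives 0 JAK or SOCS genes were called, and with 1 library left out 0 to 3 were. Among the other pathway genes, of which the reported fit called 6, DESeq2 without the block called 3, the bias-adjusted fit 3, and the fits with 1 library left out 5 to 13. The prior degrees of freedom of edgeR's dispersion estimate, a measure of how far the spread is shared between genes, were 30.4 in the reported fit. They were 9.83 without the block and 7.27 with globins out of the scaling. The bias-adjusted fit starts from the same dispersion estimate, so its 30.4 was fixed in advance. The fit with no filter had 11.9 and called 741 genes. The prior degrees of freedom of the F-test itself were not recorded. The cause of the lost calls was not tested.

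The replicate differences of mutants and wild type had a correlation of 0.0663 across genes, and the labels do not say that a number marks a shared batch, so the pairing of replicates is not established.

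The estimate for jak2b, 0.00015, was -0.0051 and -0.0043 in DESeq2 with and without the block, -0.0051 with RLE size factors, -0.0085 without a filter, -0.018 with filterByExpr, -0.014 with globins out of the scaling and -0.042 to 0.039 with 1 library left out. That for socs7 (ENSDARG00000090553) was 0.11 without the block, 0.090 in DESeq2 without it and -2.83 to 0.99 with 1 library left out. With 1 library left out, the estimates of tyk2 (-0.80 to 0.020), socs5a (-0.83 to 0.34), jak1 (-0.086 to 0.44) and csf3r (-2.25 to 0.24) also changed sign. Such fits leave 1 group with a single library, which is assumed to vary like the other group. Depth limits socs2, socs4, socs7 and socs9 most.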

Other observations

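Replicate 1 was above replicate 2 in both genotypes for 12 of the 18 tested JAK and SOCS genes (66.7%), against 27.6% of all 17242 tested genes. Among them, tyk2, socs2, socs3a, socs5a and socs9 had replicate ratios of 1.42-fold or more in each genotype, with socs2 at 1.70-fold in mutants and 6.18-fold in wild type and socs9 at 3.78-fold in mutants and 2.47-fold in wild type. Of the genes with the reverse order in mutants, SOCS1 (2 of 2) had 2.15 and 3.88 CPM in mutants and 1.02 and 0.528 CPM in wild type. What the replicate numbers stand for is not stated in the labels.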
